A study of Mus musculus with 6 samples.

Results

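The nuclear genes for subunits of the oxidative phosphorylation complexes were taken by name: symbols beginning with Nduf followed by a, b, c, s or v and a digit (complex I), the genes Sdha to Sdhd (complex II), symbols beginning with Uqcr (complex III) and symbols beginning with Atp5 (complex V, the ATP synthase). In all, 68 of the 17564 genes in the table matched, 39 of them for complex I, 4 for complex II, 8 for complex III and 17 for complex V. They lie on 19 chromosomes. The name rule also takes 4 genes that are not plain subunits of the complex their name gives: Ndufa4, which is now assigned to complex IV, its paralog Ndufa4l2, the pseudogene Ndufs5-ps and the gene copy Ndufa11b.

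Whole back skin of 8-week-old wild-type C57BL/6 mice was sequenced in 2 groups of 3 samples, untreated (U1, U2, U3) and treated (T1, T2, T3). Both groups had been shaved and depilated. Treated skin also received SspA, the V8 protease of staphylococci, at 3 µg, and 10 µg of HDM, an extract of house dust mites, applied again 3 days later, and was taken at day 7 from the first of these. For untreated skin no day of collection is labelled. Nothing in the labels ties the 3 samples of a group to separate mice, so the spread that p-values rest on may be technical. The comparison asked how gene expression differs between skin exposed to the protease and mite extract and skin that was not.

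Oxidative phosphorylation makes ATP in the inner mitochondrial membrane. Complex I takes electrons from NADH and complex II takes them from succinate in the tricarboxylic acid cycle. Both pass them through ubiquinone to complex III and on through cytochrome c to complex IV, and complexes I, III and IV pump protons. Complex V lets the protons flow back through a rotating ring and uses that turning to make ATP. Most subunits are encoded in the nucleus and a few in mitochondrial DNA, while complex II is wholly nuclear. Skeletal muscle and brown fat carry dense mitochondria, and whole back skin includes a sheet of muscle and a layer of fat beneath the dermis, whereas the epidermis is known for a high rate of glycolysis.

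The values below are scaled reads, the authors' read counts brought to 1 common total per library. The reads behind them numbered 5770072 in U1, 4928245 in U2, 5580401 in U3, 5606959 in T1, 5821622 in T2 and 7545567 in T3, so the shallowest library was untreated and the deepest was treated. Reads of the 68 subunit genes numbered 21589, 22142 and 21126 in U1 to U3 and 21415, 20071 and 22706 in T1 to T3. T3 thus held 1.53 times the reads of U2 over all genes but 1.03 times its reads over the subunit genes. As a share of all reads the subunit genes took 0.374%, 0.449% and 0.379% in the untreated libraries and 0.382%, 0.345% and 0.301% in the treated ones. U2 had the highest share and T3 the lowest, and the other 4 libraries lay between 0.345% and 0.382% with no gap between the groups. Results are therefore given over all 6 libraries and again over the 4 of like depth (U1, U3, T1 and T2). Since U2 and T3 were also the extremes in subunit share, leaving them out brings the median fold change of the subunit genes nearer 0. The values over those 4 libraries therefore cannot tell depth from anything else that set U2 and T3 apart. In bulk tissue, fewer cells of a type and less RNA per cell cannot be told apart.

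Of the 68 genes, 67 had enough reads to be tested, among 15534 tested genes. The exception was Ndufa11b, with 26 reads over the untreated and 17 over the treated libraries. In treated skin 3 subunit genes fell (limma on log2 of the scaled value plus 1, Benjamini-Hochberg adjusted p under 0.05), where 7.23% of all tested genes did, and 0 rose, where 9.26% did. The 3 were Ndufa4l2, Ndufa10 and Ndufv3, all with complex I names. The edgeR quasi-likelihood test on recovered reads called the same number, 3 lower (7.75% of all tested genes) and 0 higher (8.04%), DESeq2 called 2 lower (8.6%) and 0 higher (8.03%), and limma fitted without letting the spread follow the level called 0 in either direction (4.12% lower and 5.94% higher over all tested genes). At an unadjusted p under 0.05 in limma, 12 subunit genes (17.9%) were lower, beside 13.2% of all tested genes. The treated values all lay below the untreated values for 16 subunit genes (23.9%), beside 15.6% of all tested genes, and all above them for 0, beside 21.7%. The share called lower, 4.48%, was thus near that of the whole table.

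The fold changes were small and of one sign. Over 6 libraries the log2 fold change was below 0 for 67 of 67 tested subunit genes, against 45.1% of all tested genes, from -0.57 for Ndufa4l2 to -0.01 for Atp5l. The median was -0.22, beside 0.03 over all tested genes. By complex, the median was -0.24 for the 38 tested genes of complex I, -0.26 for the 4 of complex II, -0.20 for the 8 of complex III and -0.19 for the 17 of complex V. In the 4 libraries of like depth the median was -0.05, with 46 of 67 below 0 (45.1% of all tested genes), and 0 subunit genes were called lower, where 8.85% of all tested genes were. There the medians of complexes I, II, III and V were -0.07, -0.09, -0.04 and -0.02, beside 0.03 over all tested genes.

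**Figure D1:**
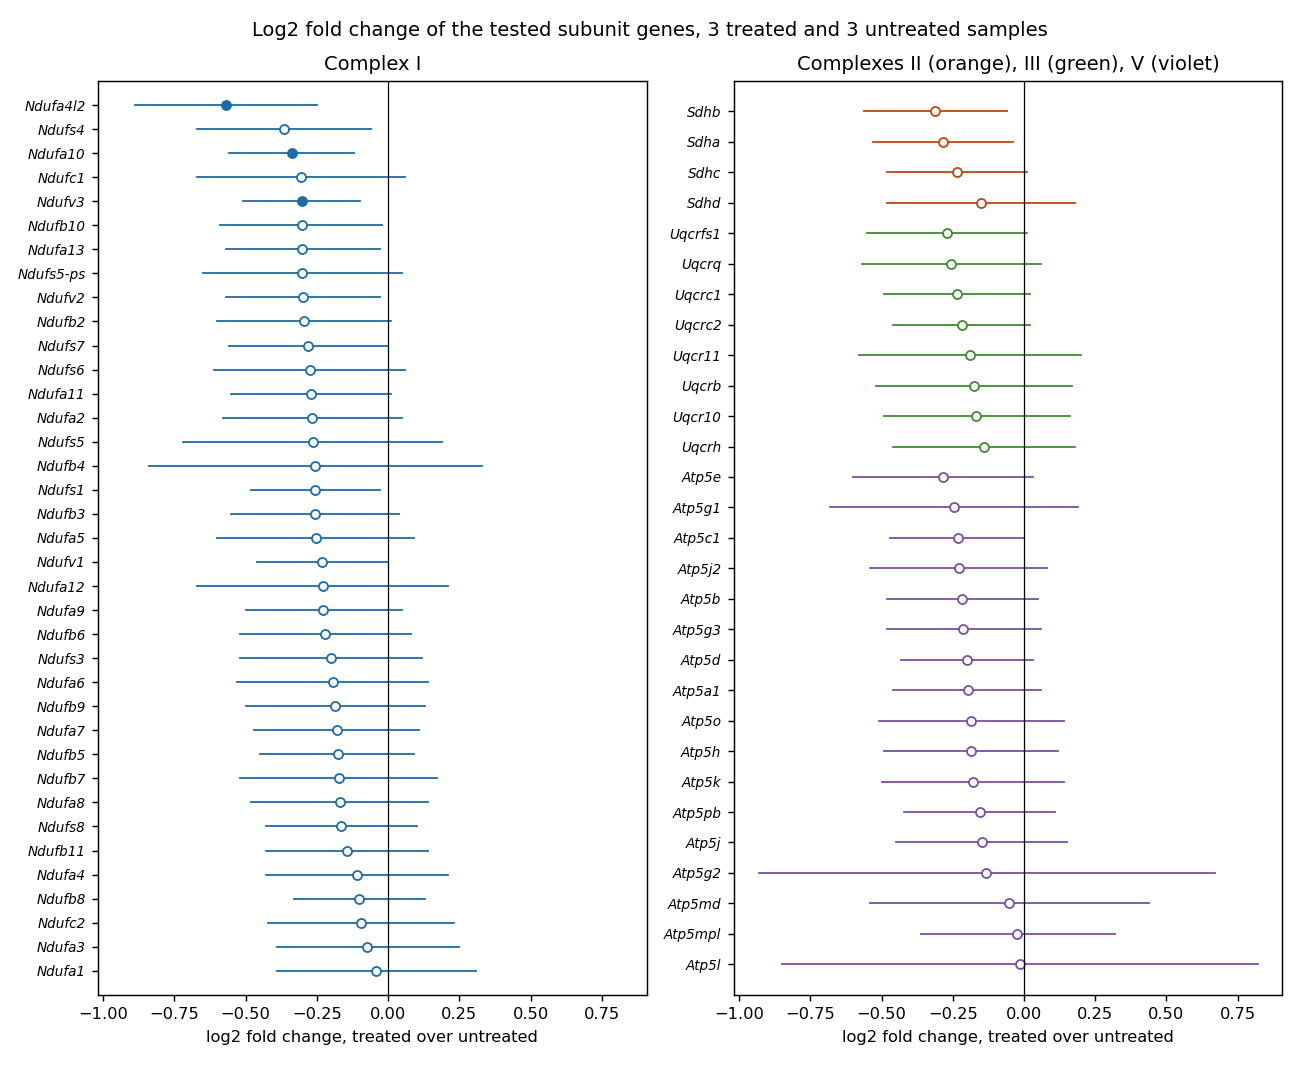
Log2 fold change (treated over untreated, x axis) of 66 tested subunit genes over 3 treated and 3 untreated samples, with bars for the 95% confidence interval of the limma fit; filled points passed adjusted p under 0.05. All 66 points lie left of 0, and the 3 filled ones are Ndufa4l2, Ndufa10 and Ndufv3.

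Which libraries carried the difference was read from each gene's deviation from its own mean over the 6 libraries. The median deviation of the 67 subunit genes, on the log2 scale, was 0.02 in U1, 0.27 in U2, 0.04 in U3, 0.06 in T1, -0.09 in T2 and -0.30 in T3. Over all tested genes the same medians ran from -0.03 to 0.04. U2 held the highest of the 6 values for 63 of 67 subunit genes, where it did for 23.4% of all tested genes, and T3 held the lowest for 64 of 67, where it did for 18.1%. T1, a treated library, lay above both U1 and U3. Without U2 the median log2 fold change of the subunit genes was -0.14, with 62 of 67 below 0 (44.9% of all tested genes), and without T3 it was -0.13, with 60 below 0 (45% of all tested genes).

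**Figure D2:**
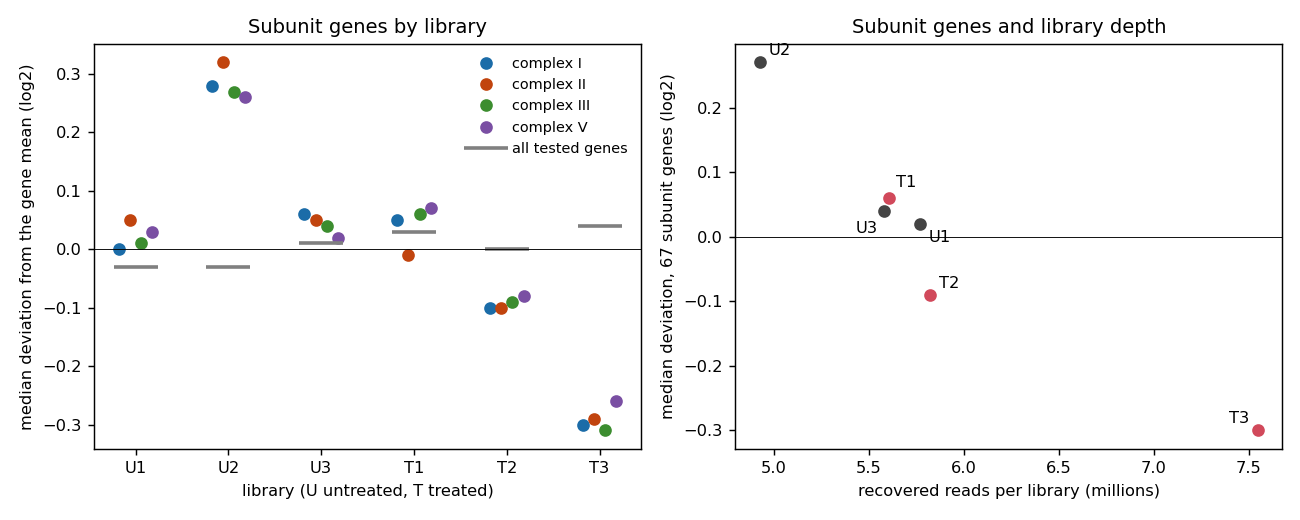
Left, median deviation of the subunit genes of each complex from each gene's mean over the 6 libraries (log2), with grey bars for all tested genes; right, the same median over 67 subunit genes against recovered reads per library (dark points untreated, red points treated). U2, with the fewest reads, is the highest at 0.27 and T3, with the most, is the lowest at -0.30.

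The subunit transcripts are short and abundant, with a median of 0.327 reads per base of transcript (range 0.018 to 0.668) beside 0.099 over all tested genes. Across the whole table the fold change moved with this density. When tested genes were ordered by reads per base and divided into 5 groups of like size, the median log2 fold change was 0.17, 0.11, 0.07, 0.02 and -0.07 from the sparsest to the densest group. The densest group held 52 of the 67 subunit genes, and 66.1% of all its genes had a fold change below 0. With each library's trend with reads per base removed, the subunit genes had a median of -0.13, with 61 of 67 below 0 (48.7% of all tested genes). Depth and density move with the subunit genes in U2 and T3, and their part in the small fold changes was not tested.

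**Figure D3:**
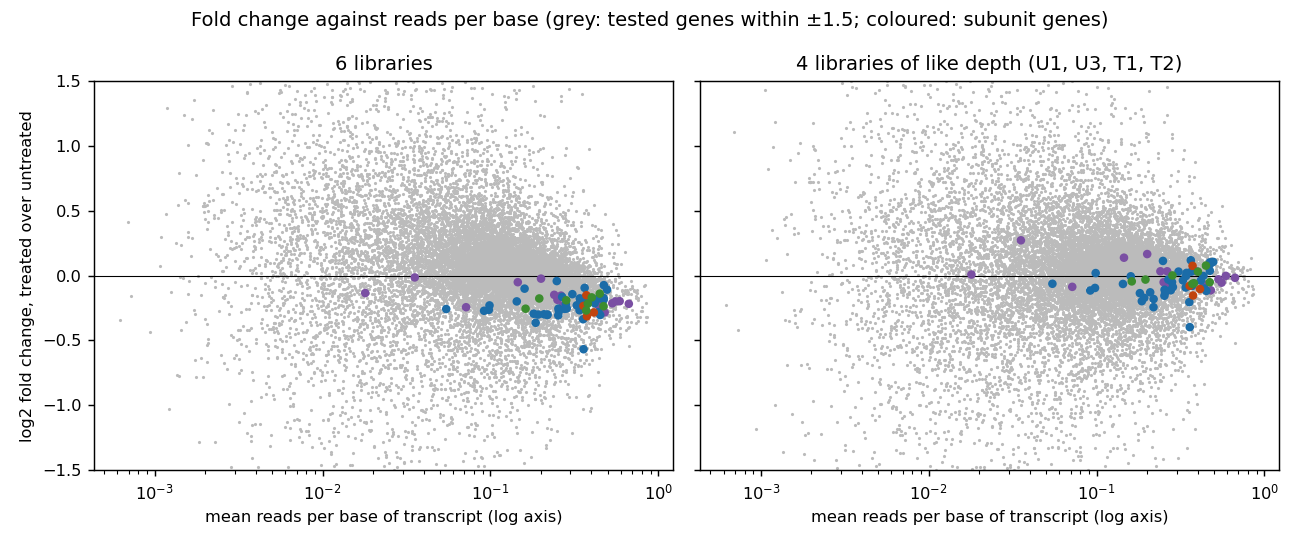
Log2 fold change (treated over untreated) against mean reads per base of transcript (log axis) for tested genes (grey) and the subunit genes of complex I (blue), II (orange), III (green) and V (violet), over 6 libraries (left) and the 4 of like depth (right). Points beyond 1.5 in either direction are not drawn; the subunit genes have a median of -0.22 on the left and -0.05 on the right.

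In complex I, the arm that reaches into the matrix holds 7 nuclear core subunits, which carry the flavin and the iron-sulfur clusters that lead electrons to ubiquinone. None of the 7 core genes passed the test in limma, edgeR or DESeq2. At an unadjusted p under 0.05 in limma 4 of the 7 were lower, beside 13.2% of all tested genes. Their log2 fold changes ran from -0.30 (Ndufv2) to -0.16 (Ndufs8), with a median of -0.23 over 6 libraries and -0.08 over the 4 of like depth. Ndufv1, whose protein binds FMN and oxidises NADH, had 646, 773 and 670 scaled reads in U1 to U3 and 639, 607 and 534 in T1 to T3. The groups did not overlap, with U1 and T1 only a few scaled reads apart (log2 fold change -0.23 ± 0.10 (SE), limma adjusted p = 0.151). Ndufs1, the largest core subunit, which carries iron-sulfur clusters, had 918, 1070 and 887 in untreated and 876, 794 and 734 in treated skin. Here too the groups were apart but U3 and T1 nearly met (-0.26 ± 0.10, limma adjusted p = 0.109). Ndufv2, which carries an iron-sulfur cluster beside the flavin, had 378, 464 and 390 in untreated and 375, 328 and 298 in treated skin (-0.30 ± 0.12, limma adjusted p = 0.124). Ndufs7, a core subunit near the ubiquinone site, had a log2 fold change of -0.28.

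The accessory subunits surround this core and are needed for its assembly and stability. For the 28 tested accessory genes the median log2 fold change was -0.24, near that of the core genes, and 2 of them fell. Ndufa10, an accessory subunit related in fold to nucleoside kinases, had 501, 575 and 492 scaled reads in untreated and 441, 420 and 379 in treated skin. Every treated library lay below every untreated one (-0.34 ± 0.10, limma adjusted p = 0.0465). Leaving out any 1 of the 6 libraries ended this call (limma adjusted p from 0.0614 to 0.138), and in the 4 libraries of like depth the log2 fold change was -0.21 (limma adjusted p = 0.158).

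Ndufv3, a small accessory subunit of the module that oxidises NADH, had 425, 423 and 394 scaled reads in untreated and 356, 335 and 315 in treated skin. The groups were apart, and U2 was not the highest library here (-0.30 ± 0.09, limma adjusted p = 0.0495). Leaving out any 1 of the 6 libraries ended the call (limma adjusted p from 0.0608 to 0.154), as did DESeq2 on the recovered reads (adjusted p = 0.0667). In the 4 libraries of like depth the log2 fold change was -0.24, the second lowest among tested subunit genes after that of Ndufa4l2, with a limma adjusted p of 0.141.

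Ndufs4, an accessory subunit near the NADH site whose loss in mice is a model of Leigh syndrome, had the second lowest log2 fold change of the 67 tested subunit genes over 6 libraries, -0.36 ± 0.14, and did not pass (limma adjusted p = 0.103). Its values were 310, 407 and 339 in untreated and 315, 253 and 250 in treated skin, so that T1 lay above U1. At the other end stood Ndufa1, a small accessory subunit of the membrane arm encoded on the X chromosome, with 121, 157 and 125 in untreated and 142, 124 and 123 in treated skin (-0.04 ± 0.16, limma adjusted p = 0.884). The 10 tested Ndufb genes, subunits of the membrane arm, had a median of -0.20 and -0.03 in the 4 libraries of like depth. Ndufs5 and its pseudogene Ndufs5-ps can share reads, so their log2 fold changes of -0.26 and -0.30 are uncertain.

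Ndufa4l2, at chr10:127514939-127517156 on the + strand of mm10, had the lowest log2 fold change of the 67 tested subunit genes. It is a paralog of Ndufa4 that is known as a target of hypoxia-inducible factor and has been linked to lower complex I activity. It had 458, 498 and 402 scaled reads in untreated and 373, 284 and 265 in treated skin. Every treated library lay below every untreated one, with U3 and T1 the nearest pair (-0.57 ± 0.14, limma adjusted p = 0.0284). The call was lost without U1 (limma adjusted p = 0.0873), without U2 (0.0922), without T2 (0.0958) and without T3 (0.0526), and over all alternatives run the adjusted p ranged from 0.0042 to 0.0965. In the 4 libraries of like depth the log2 fold change was -0.40 (limma adjusted p = 0.0965).

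Ndufa4 had 255, 306 and 266 scaled reads in untreated and 293, 268 and 211 in treated skin. The groups overlapped, with T1 above both U1 and U3 (-0.11 ± 0.14, limma adjusted p = 0.653), and the sign turned in the 4 libraries of like depth (0.11). Since both genes were read in the same library, their ratio carries no library scaling. A trend with reads per base can still enter it, since the genes differ there (0.359 for Ndufa4l2 and 0.496 for Ndufa4). Per kilobase of transcript, Ndufa4l2 over Ndufa4 was 0.92, 0.83 and 0.78 in U1 to U3 and 0.65, 0.54 and 0.64 in T1 to T3. All 3 treated ratios lay below all 3 untreated ones (exact permutation test, two-sided, p = 0.1, the smallest value that 3 against 3 allows). The pair was chosen after its values were seen, so this p-value is no support for a difference.

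Complex II has 4 subunits, and none of their genes passed in limma, edgeR or DESeq2. At an unadjusted p under 0.05 in limma 2 of the 4 were lower, beside 13.2% of all tested genes. Sdha, the flavoprotein that oxidises succinate, had 1313, 1627 and 1307 scaled reads in untreated and 1271, 1169 and 1040 in treated skin. The groups were apart by the small step between U3 and T1 (-0.28 ± 0.11, limma adjusted p = 0.109). Sdhb, the iron-sulfur subunit, had 451, 551 and 457 in untreated and 426, 390 and 355 in treated skin (-0.31 ± 0.11, limma adjusted p = 0.0857). The membrane anchors, which bind heme and ubiquinone, followed with -0.23 ± 0.11 for Sdhc and -0.15 ± 0.14 for Sdhd (limma adjusted p = 0.169 and 0.52). Sdhc was apart between the groups, whereas T1, at 591, exceeded U1, at 482, and U3, at 550, for Sdhd. In the 4 libraries of like depth the 4 genes had -0.10 (Sdha), -0.15 (Sdhb), -0.08 (Sdhc) and 0.07 (Sdhd).

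None of the 8 complex III genes passed in limma, edgeR or DESeq2. At an unadjusted p under 0.05 in limma 0 of the 8 passed, where 13.2% of all tested genes were lower. None had groups that did not overlap, where 15.6% of all tested genes had every treated value below every untreated one. With so few genes, 0 is no result about complex III. Uqcrfs1, the Rieske iron-sulfur protein that takes electrons from ubiquinol, had 546, 678 and 532 scaled reads in untreated and 547, 486 and 423 in treated skin. T1 lay level with U1 and above U3 (-0.27 ± 0.13, limma adjusted p = 0.179). Uqcrc1, a core protein on the matrix side, had 845, 1046 and 866 in untreated and 862, 791 and 686 in treated skin (-0.24 ± 0.11, limma adjusted p = 0.185). Its partner Uqcrc2 had a log2 fold change of -0.22 and the small subunit Uqcrq -0.26. The 5 small subunits together had a median of -0.18 over 6 libraries and 0.00 over the 4 of like depth, and their highest value was -0.14 (Uqcrh, the hinge protein).

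None of the 17 complex V genes passed in limma, edgeR or DESeq2. At an unadjusted p under 0.05 in limma 0 of the 17 passed, where 13.2% of all tested genes were lower. The groups overlapped for each of the 17, where 15.6% of all tested genes had every treated value below every untreated one. The catalytic head F1 holds alpha and beta subunits around a rotor stalk. Atp5b, the catalytic beta subunit, had 1361, 1634 and 1409 scaled reads in untreated and 1430, 1309 and 1064 in treated skin. T1 lay above U1 and U3 and only T3 lay well below (-0.22 ± 0.12, limma adjusted p = 0.244; -0.02 in the 4 libraries of like depth). Atp5a1, the alpha subunit, had 1587, 1864 and 1543 in untreated and 1627, 1500 and 1240 in treated skin (-0.20 ± 0.11, limma adjusted p = 0.276). Its fold change in the 4 libraries of like depth was 0 to 2 decimals. The 5 F1 genes had a median of -0.22, and the lowest of complex V was Atp5e, the epsilon subunit of the stalk, at -0.28 ± 0.14 (limma adjusted p = 0.201).

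The proton-driven ring is built of copies of subunit c, which 3 genes encode with the same mature protein. Atp5g3 had 425, 498 and 423 scaled reads in untreated and 433, 399 and 332 in treated skin (-0.21 ± 0.12, limma adjusted p = 0.259). Atp5g1 had a log2 fold change of -0.24 ± 0.19 and Atp5g2, on few reads, of -0.13 ± 0.35. The 3 genes thus lay within their errors of each other. The 4 genes of the peripheral stalk, which holds the head still against the ring, had a median of -0.17 and 0.03 in the 4 libraries of like depth. Of these parts of complex V, the 5 small membrane subunits had the median nearest 0, -0.05, and 0.14 in the 4 libraries of like depth. They were split, with the lowest at -0.23, whereas Atp5md (-0.05), Atp5mpl (-0.02) and Atp5l (-0.01) lay near 0. Near-identical copies elsewhere in the genome can take reads from Atp5l, Atp5g2 and Ndufb4, whose low values are uncertain for that reason.

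**Figure D4:**
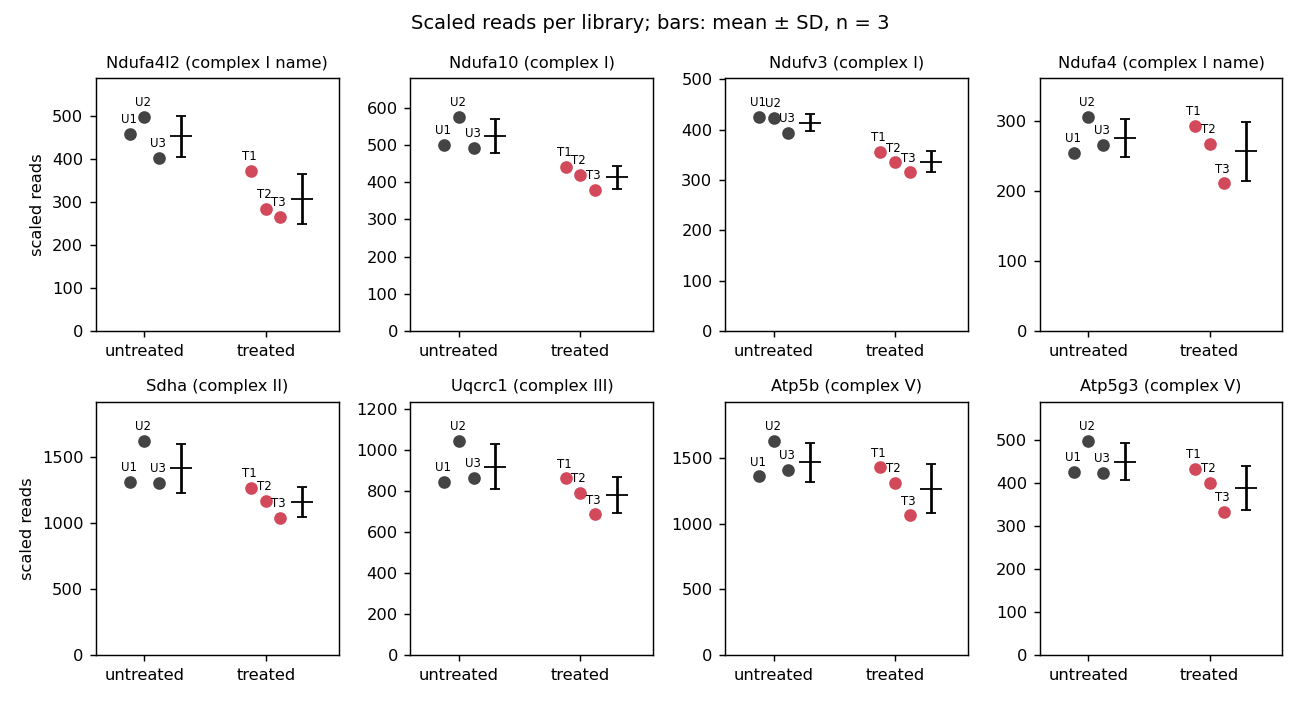
Scaled reads in each library (y axis from 0; dark points untreated, red points treated) of 8 subunit genes, with bars for the mean ± SD over 3 samples. Ndufa4l2, Ndufa10, Ndufv3 and Sdha have groups that do not overlap; in Ndufa4, Uqcrc1, Atp5b and Atp5g3 the highest treated library, T1, lies above at least 1 untreated library.

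The complexes moved with each other from library to library. The mean deviation of complex V less that of complex I was 0.00, -0.04 and -0.06 on the log2 scale in U1 to U3 and 0.07, 0.01 and 0.01 in T1 to T3. All 3 treated libraries lay at or above the untreated ones, the widest gap being that between U3 and T1. For complex III less complex I the differences were -0.01, -0.01 and -0.02 in untreated and 0.04, 0.03 and -0.02 in treated skin, and for complex II less complex I they were 0.00, 0.03 and -0.01 against -0.02, 0.01 and -0.01. These overlapped. Beside the spread of the subunit genes between libraries, from -0.30 to 0.27, the complexes differed little.

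Levels per transcript length differed widely between subunit genes of one complex. No tested gene exceeded 0.852 reads per base, and no source used here says how reads at 1 position were counted, so the levels of the densest transcripts may be understated beside those of sparse ones. In untreated skin Atp5b was the highest, with 786 ± 77.9 scaled reads per kilobase (SD, n = 3), followed by Atp5a1 with 689 ± 72.1, Atp5d, the delta subunit, with 649 ± 52.2, and Atp5g3 with 626 ± 59.6. For neighbours in this order the ranges of 1 SD around the means overlapped. Among the genes for subunit c, Atp5g1 followed far below Atp5g3 with 85.2 ± 11.1, and Atp5g2 had 20.5 ± 4.52. The low levels of Atp5g2 and, in complex I, of Ndufb4 are uncertain, since near-identical copies can take their reads. In complex I the tested genes ran from 65.4 ± 8.08 (Ndufb4) to 561 ± 55.0 (Ndufa4), with a median of 336. The 4 genes of complex II were close together, between 424 ± 46.7 (Sdhc) and 498 ± 64.5 (Sdha). Complex III ran from 193 ± 16.6 (Uqcrq) to 560 ± 67.3 (Uqcrc1). Uqcrq was lowest through its listed transcript length of 1521 bases, as its scaled reads in untreated skin exceeded those of the other small subunits. Ndufa4l2, at 473 ± 50.2, was on a level with complex II genes in untreated skin.

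**Figure D5:**
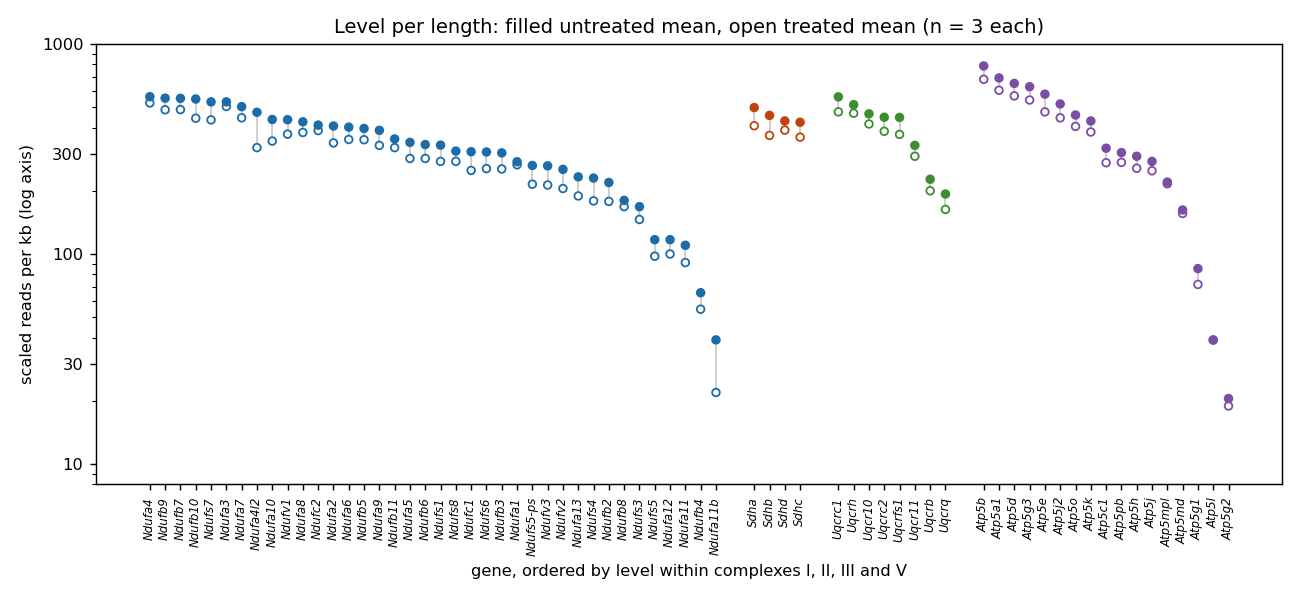
Mean scaled reads per kilobase of transcript (log axis) of 67 subunit genes in untreated (filled) and treated (open) skin, 3 samples each, ordered by untreated level within complexes I (blue), II (orange), III (green) and V (violet). The genes for subunit c of the ATP synthase are spread from 20.5 (Atp5g2) to 626 (Atp5g3). The value of Atp5g2 is uncertain, since near-identical copies can take its reads.

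Promoters of respiratory chain genes are known for binding sites of nuclear respiratory factor 1 (NRF1) and of YY1. Promoter windows of 300 bases, from 250 before to 50 after the start, were read from RefSeq on GRCm38.p6, the build that mm10 names. They matched 55 of the 68 subunit genes with 60 windows, since some genes have more than 1 start and such windows can overlap. An NRF1 site, the letters GCGCA, any base and then GCGC, searched on both strands, stood in 17 of the 60 windows (28.3%), against 8.56% of the 15375 windows of tested genes. The windows with these letters belonged to 16 genes: Ndufa5, Ndufa6, Ndufa8, Ndufa11, Ndufb4, Ndufs5, Ndufs6, Sdha, Sdhd, Uqcrc1, Atp5c1, Atp5g2, Atp5g3, Atp5h, Atp5k and Atp5o. The letters AAGATGGC, a YY1 site, stood in 10 of 60 (16.7%, against 3.8% of windows of tested genes), with Ndufs6 the gene that held both. By contrast GGGCGG, an Sp1 box, stood in 38.3% of subunit windows and 58.3% of those of tested genes, and TATAAA in 11.7% and 8.03%. All 4 motifs were searched on both strands, none of them contains another, and a match is a description, not a shown site.

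Upstream stretches with the NRF1 letters are shown for 6 genes of complexes I, II and V, to let the shared core be seen; each is 5′ to 3′ on the gene's own strand, and the capitals mark the match.
Ndufa11, complex I, chr17:56717677-56717736, + strand: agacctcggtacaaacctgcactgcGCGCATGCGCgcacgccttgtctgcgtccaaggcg
Ndufs5, complex I, chr4:123718250-123718309, - strand: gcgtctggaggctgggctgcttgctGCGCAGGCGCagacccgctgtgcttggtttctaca
Sdha, complex II, chr13:74350304-74350363, - strand: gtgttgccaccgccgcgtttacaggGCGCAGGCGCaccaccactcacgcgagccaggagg
Sdhd, complex II, chr9:50603894-50603953, - strand: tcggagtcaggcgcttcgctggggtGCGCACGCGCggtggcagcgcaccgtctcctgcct
Atp5g2, complex V, chr15:102671055-102671114, - strand: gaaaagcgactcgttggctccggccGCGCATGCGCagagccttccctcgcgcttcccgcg
Atp5k, complex V, chr5:108434415-108434474, - strand: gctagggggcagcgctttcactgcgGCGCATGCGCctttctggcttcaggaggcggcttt

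For 2 of the 3 genes that fell, the 120 bases just before the start are shown. These promoters hold neither the NRF1 nor the YY1 letters in the window searched, so they carry no capitals. Both hold the Sp1 box letters in that longer window, but outside the 120 bases shown. Most matched subunit genes also hold neither, since of the 55 only 16 had the NRF1 letters and 10 the YY1 letters.
Ndufa10, chr1:92473759-92473878, - strand: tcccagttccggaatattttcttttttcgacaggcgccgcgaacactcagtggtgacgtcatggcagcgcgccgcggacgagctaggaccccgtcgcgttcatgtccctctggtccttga
Ndufv3, chr17:31519995-31520114, + strand: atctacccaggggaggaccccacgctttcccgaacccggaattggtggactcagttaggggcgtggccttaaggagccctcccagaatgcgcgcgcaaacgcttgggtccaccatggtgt
Genes with the NRF1 letters were found among those near 0 (Atp5g2, -0.13) as well as among those further below it (Sdha, -0.28).

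Other genes of the same pathway were read from lists, each given by its counts and its median. Of the 16 nuclear genes of complex IV, 1 rose and 1 fell, with a median log2 fold change of -0.17, and of -0.01 in the 4 libraries of like depth. The one that rose was Cox4i2, an isoform of subunit 4 known for its response to oxygen, with 27.5, 15.4 and 35.2 scaled reads in untreated and 52.0, 62.1 and 54.6 in treated skin (1.15 ± 0.31, limma adjusted p = 0.0359). The one that fell was Cox7a1, the heart and muscle isoform of subunit 7a, with 126, 171 and 112 in untreated and 83.7, 81.7 and 75.6 in treated skin (-0.74 ± 0.19, limma adjusted p = 0.0292). Both calls were lost on leaving out any 1 of U1, U2, T1, T2 and T3, and in the 4 libraries of like depth (limma adjusted p = 0.0698 for Cox4i2 and 0.0901 for Cox7a1). Of the 13 subunits encoded in mitochondrial DNA none had a row, and they were not analysed here.

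Genes listed as isoforms of muscle and fat stood further from 0 than the subunit genes. Of the 6 listed, 1 rose and 2 fell, with a median of -0.45 and, in the 4 libraries of like depth, of -0.22. The 1 that rose was Cox4i2, the oxygen-responsive isoform above, which is not particular to muscle or fat. The first to fall was Cox7a1. The second to fall was Ckmt2, the mitochondrial creatine kinase of muscle, with 626, 816 and 601 scaled reads in untreated and 422, 417 and 450 in treated skin (-0.65 ± 0.12, limma adjusted p = 0.00958). Its groups were far apart, and with the 4 libraries of like depth the log2 fold change was -0.55 (limma adjusted p = 0.00384). Cox6a2 and Cox8b, further muscle isoforms of complex IV, had log2 fold changes of -0.43 and -0.47 and did not pass.

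Of the 9 electron carriers and subunits outside the name rule, only Coq9, needed for ubiquinone synthesis, fell (-0.41 ± 0.11, limma adjusted p = 0.0351), and it lost its call without any 1 of U1, U2, T1, T2 and T3. Of 15 tested assembly factors of complex I none passed in limma, edgeR or DESeq2 (median -0.12, and 1 lower at an unadjusted p under 0.05 in limma). Of 30 assembly factors of complexes II to V, Uqcc1, a complex III factor, fell (-0.35 ± 0.09, limma adjusted p = 0.035), a call lost without any 1 of the 6 libraries. None of 32 genes of the mitochondrial ribosome passed in limma, edgeR or DESeq2 (0 at an unadjusted p under 0.05 in limma, median -0.08, and 0.01 in the 4 libraries of like depth).

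In the tricarboxylic acid cycle and the entry of pyruvate, 4 of 21 genes fell and 0 rose, with a median of -0.28 and, in the 4 libraries of like depth, of -0.13. DESeq2 called 9 of the 21 lower, and limma called 1 without U2 and 1 without T3. Pcx, pyruvate carboxylase, which refills the cycle and is abundant in fat, had 1778, 1985 and 1570 scaled reads in untreated and 904, 1164 and 1123 in treated skin (-0.74 ± 0.12, limma adjusted p = 0.00599). It kept its call in each alternative run at the same threshold, and was -0.70 in the 4 libraries of like depth. Ogdh (-0.33), Mpc2 (-0.44) and Pdhx (-0.42), for 2-oxoglutarate dehydrogenase, a pyruvate carrier and a part of pyruvate dehydrogenase, fell over 6 libraries with limma adjusted p of 0.0368, 0.0411 and 0.0433. Each of these 3 lost the call without U1, without U2, without T2 or without T3, Ogdh and Pdhx also without T1, and Mpc2 also without U3. In the 4 libraries of like depth Ogdh kept its call (-0.21, limma adjusted p = 0.0469). There Mpc2 (limma adjusted p = 0.145) and Pdhx (limma adjusted p = 0.0886) did not pass.

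Among 15 regulators of mitochondrial biogenesis 3 fell and 1 rose, with a median log2 fold change of -0.05. Esrrg, an orphan nuclear receptor of oxidative metabolism, had 165, 214 and 158 scaled reads in untreated and 28.3, 31.6 and 42.9 in treated skin. Every treated library was far below every untreated one (-2.36 ± 0.22, limma adjusted p = 0.000876). Ppara, the nuclear receptor for fatty acid oxidation, fell by 1.21 on the log2 scale (SE 0.24, limma adjusted p = 0.0128), from 360, 343 and 381 to 102, 167 and 222. Ppargc1a, the coactivator PGC-1 alpha, fell by 0.74 (SE 0.15, limma adjusted p = 0.0142), from 243, 332 and 250 to 146, 179 and 166. In the 4 libraries of like depth these 3 had log2 fold changes of -2.39, -1.5 and -0.61, all past the threshold. Pprc1, a coactivator of the same family, rose by 0.32 on the log2 scale (limma adjusted p = 0.0371), a call that edgeR, DESeq2 and the leaving out of any 1 of the 6 libraries each ended.

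Of 16 genes of glycolysis 1 rose and 1 fell, with a median of -0.07 and 0.10 in the 4 libraries of like depth. Slc2a1, the glucose transporter GLUT1, had 670, 646 and 673 scaled reads in untreated and 1253, 1102 and 758 in treated skin (0.61 ± 0.16, limma adjusted p = 0.032). T3 was the lowest treated library, and the call was lost without any 1 of U1, U2, U3, T1 and T2. Without T3 the log2 fold change was 0.83 (limma adjusted p = 0.000795), and over the 4 libraries of like depth, where 2 glycolysis genes were called higher, it was 0.81 (limma adjusted p = 0.000706). Pfkm, the muscle phosphofructokinase, fell (-0.43 ± 0.12, limma adjusted p = 0.0395) and lost its call without any 1 of U1, U2, T1, T2 and T3. The 28 tested genes of the cytosolic ribosome had a median of -0.05 with 18 below 0 over 6 libraries, 0.10 with 1 below 0 over the 4 of like depth and 0.05 with 7 below 0 without T3, and 0 passed in limma, edgeR or DESeq2, or at an unadjusted p under 0.05 in limma.

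Marker genes of other tissues in whole skin were read beside the subunit genes. Of 25 skeletal muscle markers 11 fell and 0 rose, with a median log2 fold change of -0.37, and -0.18 with 8 lower in the 4 libraries of like depth. Limma called 3 lower without U2 and 8 without T3, and DESeq2 called 20 over all 6. Their summed scaled reads were 74986, 85476 and 68751 in untreated and 58276, 59633 and 52102 in treated skin. U2 was again the highest and T3 the lowest, and here the groups were apart. Of 12 adipocyte markers 4 fell (summed scaled reads 11590, 13515 and 10781 in untreated, 8494, 9850 and 8751 in treated skin, and 8 by DESeq2), and of 5 brown fat markers 4 fell, Ppargc1a among them, while Ucp1, the marker that defines brown fat, had no row. Of 10 sebaceous gland markers 6 fell. Elovl3 is on both the brown fat and the sebaceous gland list and is counted as a fall in each. The part of muscle, fat and sebaceous tissue in the values of the subunit genes was not tested.

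Of 10 tested neutrophil markers 10 rose. Over all 12 listed neutrophil markers the sums were 580, 490 and 710 in untreated and 4731, 3721 and 1554 in treated skin. Ly6g and Trem1 were at 0 in at least 1 library. T3, lowest for the subunit genes, had the smallest neutrophil sum of the treated libraries. Of 10 markers of the growing hair follicle 7 rose (sums 382, 412 and 436 in untreated, 2383, 1051 and 5098 in treated skin, the highest in T3). Of 10 monocyte and macrophage markers 3 rose, of 8 proliferation markers 4 rose (2 without U2, and 2 by edgeR), of 10 keratinocyte markers 3 fell, and of 7 fibroblast markers none passed in limma (1 was lower at an unadjusted p under 0.05, and edgeR and DESeq2 each called 1 lower). Their part in the subunit values was not tested.

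The authors' deposited table gives its own comparison of the same 6 libraries, with fold changes a median of 0.041 lower on the log2 scale than those of limma. In the authors' deposited table the log2 fold change was below 0 for 68 of 68 subunit genes (49.9% of all genes), with a median of -0.26. Ndufa4l2 and Ndufa10 were called lower in the authors' deposited table, with adjusted p of 0.00426 and 0.0378, where 7.56% of all genes were, and 0 subunit genes were called higher, where 7.26% were. Ndufv3 did not pass in the authors' deposited table (adjusted p = 0.07).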

How the data were processed

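Stranded mRNA libraries were made from total RNA of whole skin, per the labels' protocols. The submitters' processing notes name bcl2fastq 2.20.0.422, STAR, DESeq2 and the build mm10; read counting and filters: not given in the sources used here. Deposited by the authors was 1 table of 17564 genes with a scaled signal per library, log2 fold changes, p-values and transcript lengths, per the file headers. Divided by the worth of 1 read, 100.0% of values came within 0.1 of whole numbers, which gave the recovered reads. The edgeR quasi-likelihood test on them called 1249 genes higher and 1204 lower, with 3 subunit genes lower.

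The main test was limma 3.58.1 in R 4.3.3 on log2(value + 1), with group alone in the model, a trend in the spread, and p-values adjusted by Benjamini-Hochberg over the 15534 genes that passed filterByExpr of edgeR 4.0.16 on those reads (minimum count 10, minimum total 15). Fold changes on this scale understate the change of low genes. Replicate libraries differed by more than counting noise (mean chi-square per gene 2.47 to 8.81). The script was tested on simulated data.

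The subunit genes and all lists were chosen with earlier results of these data known. Genes named were every called subunit gene, the 4 per complex with the smallest p, chosen catalytic, anchor and ring subunits, Ndufa4 and Ndufa4l2, and up to 4 per other list. The values of 1 subunit gene are not reported here on their own, and it is left out of the figures that name genes. Ndufa1, Atp5l, Atp5mpl, Ndufs5-ps, Ndufs5, Atp5md, Ndufs3, Ndufs7, Ndufs8 and Ndufb4, as well as Uqcrh and the genes named for a level, a range or a promoter match, were named after their values were seen. Alternatives were edgeR, DESeq2 1.42.0, TMM scaling, pseudocounts of 0.5 and 5, other filters (none, or 1 CPM in 3 libraries), a threshold of 0.01, no trend in the spread, the replicate number as a block, the 4 libraries of like depth, removal of each library's loess trend with reads per base, reads estimated from filled positions, each library left out in turn, and the comparison the authors deposited.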

Additional observations from a re-analysis of the deposited data

How the results depend on the processing

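The direction of the median fold change held in each alternative run for all 4 complexes, but its size did not: over the 4 libraries of like depth it was -0.05 for all subunit genes, -0.07 for complex I and -0.09 for complex II. That subset leaves out the libraries with the highest and the lowest subunit share, which by itself brings the medians nearer 0. The 3 subunit genes called lower became 0 in those 4 libraries, 0 without a trend in the spread (with 922 genes higher and 640 lower in all) and 0 at an adjusted p under 0.01 (362 and 288). The labels state no pairing of libraries by replicate number. Correlations of deviations were -0.085, -0.055 and 0.054 for like numbers and ran from -0.098 to 0.146 for unlike ones. With 3 libraries per group they cannot decide whether libraries were paired. With the replicate block 1 subunit gene stayed lower, Ndufa4l2, among 1348 genes higher and 1096 lower. Leaving out 1 library at a time gave 0 to 1 subunit genes lower, 597 to 1389 genes higher and 518 to 1333 lower.

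Of all 67 tested subunit genes, 46 were below 0 in the 4 libraries of like depth and 61 after removal of the trend with reads per base. Among those followed through every alternative as named genes, signs turned for 7. In the 4 libraries of like depth their log2 fold changes were 0.01 (Atp5g2), 0.27 (Atp5l), 0.14 (Atp5md), 0.17 (Atp5mpl), 0.11 (Ndufa1), 0.11 (Ndufa4) and 0.07 (Sdhd). After removal of the trend they were 0.00 (Atp5mpl), 0.02 (Ndufa1) and 0.05 (Ndufa4). Leaving out 1 library gave -0.34 to 0.08 (Atp5g2), -0.29 to 0.19 (Atp5l), -0.18 to 0.07 (Atp5md), -0.11 to 0.07 (Atp5mpl), -0.11 to 0.07 (Ndufa1) and -0.21 to 0.03 (Ndufa4). Of the single values of named subunit genes, 606 kept direction and side of the threshold, 31 lost the call and 23 turned sign. All 31 lost calls were of Ndufa4l2, Ndufa10 and Ndufv3, the only named subunit genes called in the main test. The other named subunit genes had no call to lose, and most of the 606 values were theirs. The 606 is therefore no measure of how stable the calls were. The cause of these changes was not tested. Unequal depth, with U2 shallowest and T3 deepest, limits what can be said of changes this small.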
